A study of Mus musculus with 18 samples.

Results

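The clustered protocadherins are described here as the 57 protein-coding genes of the mm10 RefSeq table whose symbols begin with Pcdha, Pcdhb or Pcdhg, out of 21887 coding genes on the 19 autosomes, X and Y. They comprise 14 Pcdha, 22 Pcdhb and 21 Pcdhg genes and lie in 3 neighbouring clusters on chromosome 18. The mark measured was H3K4me3, by CUT&RUN, in which an antibody tethers a nuclease that cuts out the chromatin around its target. The chromatin came from mouse prospermatogonia, fetal male germ cells in mitotic arrest, at E17.5, which carried an Oct4-GFP reporter, were GFP-positive and had been stored frozen, with 4000 nuclei for each library. Each of 3 genotypes had 3 H3K4me3 libraries, labelled as biological replicates: Tet1+/+ (WT), Tet1-/- (KO) and Tet1HxD/HxD (HxD), an allele altered in the HxD motif of the catalytic centre and known as catalytically inactive. TET1 oxidises 5-methylcytosine, and the series title asks how it shapes germline chromatin apart from that activity. The sources used here do not say how many embryos gave each replicate, so p-values measure the spread between these libraries. The 9 IgG libraries were not used here.

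Clustered protocadherins are cell-surface adhesion proteins, best known from neurons, where each cell uses its own small choice of isoforms. Each Pcdha and Pcdhg gene has its own promoter and long variable exon, which is spliced to constant exons shared at the far end of its cluster, whereas a Pcdhb gene is a lone exon with a promoter of its own. The promoters are rich in CpG, are methylated when silent and are contacted by distant enhancers through CTCF and cohesin, and the C-type genes at the cluster ends are less subject to this choice than the alternate ones. H3K4me3 marks promoters that are active or poised, and DNA methylation and H3K4me3 tend to exclude each other.

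The data were 1 list of called peaks for each library. The unit used below is covered bp, the number of bases inside a peak in a stated window, and a gene is called marked in a library when at least 1 bp of its window is covered. The window within 1 kb of the gene start (2001 bp) was the main one. A second window, from the start to 2500 bp downstream, which is about where the variable exon lies, was added after the positions of the peaks had been seen. Peak lists show where signal passed the caller's threshold and hold no read counts, so covered bp depends on how deep and clean a library is as well as on the mark. In these bulk nuclei, fewer cells with the mark and less mark per cell cannot be told apart.

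The lists differed in size before any gene was considered. The span of covered Mb was 76.6 to 108.9 for WT, 50.5 to 73.0 for KO and 45.6 to 69.3 for HxD, with KO replicate 1 and HxD replicate 2 the lowest of their groups. The number of coding genes marked within 1 kb moved far less, with group means of 15231 ± 457 (WT), 14749 ± 525 (KO) and 14608 ± 331 (HxD) over 3 libraries ± SD, and 58.2% of coding genes were marked in all 9 libraries. The targeted gene Tet1 was marked in all 9 libraries, which checks no label, because a change inside a gene need not remove the mark at its promoter. Markers of germ cells and of other cell types gave the following context. Of 10 germ cell markers, 6 to 10 were marked in each library, with summed covered bp of 8189 to 12050 (WT), 8683 to 13922 (KO) and 7684 to 11594 (HxD). Of 8 Sertoli markers 6 to 8 were marked (10412 to 11744, 9042 to 11018 and 8832 to 11746 bp), and of 6 neuron markers 5 or 6 (7924 to 8659, 5032 to 8166 and 6652 to 7990 bp). Of 8 Leydig and interstitial markers 3 to 5 were marked (3430 to 6750, 2107 to 4984 and 3280 to 5063 bp), and Cyp17a1, Star and Hsd3b1 were at 0 in all 9 libraries. Of 7 endothelial and blood markers 3 or 4 were marked (2672 to 4365, 1960 to 3585 and 2607 to 3681 bp), and Ptprc and Gata1 were at 0 throughout. The part of other cells in the protocadherin values was not tested.

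Most clustered protocadherin genes carried H3K4me3 in WT prospermatogonia, and fewer were marked in the mutants. Within 1 kb of the start, 48, 42 and 49 of the 57 genes were marked in the 3 WT libraries, 23, 46 and 38 in KO and 38, 27 and 33 in HxD. The means were 46.3 ± 3.79, 35.7 ± 11.7 and 32.7 ± 5.51 genes (SD, n = 3 each). KO replicate 2 lay inside the WT range, and KO replicate 1 lay far below it, so the KO and WT counts overlapped, while every HxD library was below every WT library. Without KO replicate 1 the ratio of KO to WT was 0.906 in place of 0.770, and without HxD replicate 2 the ratio of HxD to WT was 0.766 in place of 0.705. For all coding genes the ratios, from the full lists of all 9 libraries only, were 0.968 and 0.959. When each list was first reduced to the length of the shortest, keeping its strongest peaks, the HxD ratio for the protocadherins was 0.915. Only 14 of the 57 genes (24.6%) were marked at the start in all 9 libraries, and 4 were marked there in none, namely Pcdhb16, Pcdhb19, Pcdhb21 and Pcdhgc5.

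**Figure D1:**
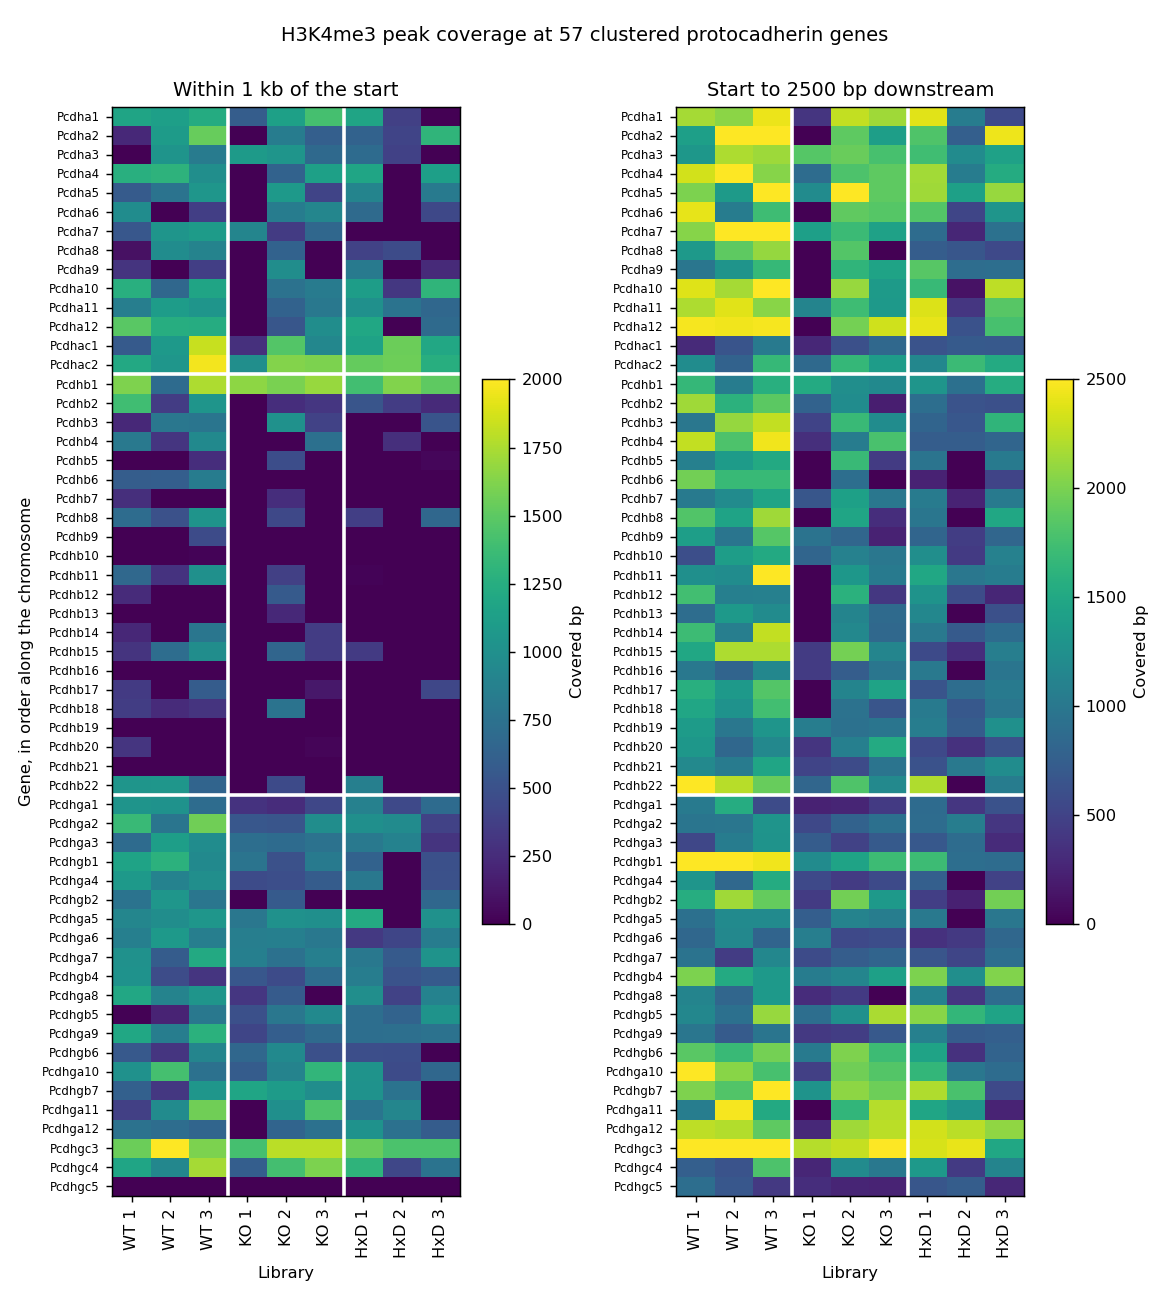
Heat map of covered bp (colour) at each of the 57 genes (rows, in chromosomal order, white lines between Pcdha, Pcdhb and Pcdhg) in each library (columns, 3 per genotype). The left panel shows the window within 1 kb of the start and the right panel the window from the start to 2500 bp downstream, where all 57 genes were covered in all 3 WT libraries and 41 in KO replicate 1.

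Over the 2500 bp downstream of the start, the marking was broader. All 57 genes had a peak there in each WT library, 41, 57 and 54 in the KO libraries and 57, 49 and 57 in the HxD libraries. The C-type gene Pcdhgc5, with no peak within 1 kb of its annotated start, had one in this window in all 9 libraries, and so did Pcdhb19 and Pcdhb21. Pcdhb16 had one in 8 of 9, HxD replicate 2 being the exception. In WT, every gene without a peak at its start had one further into the exon, whereas 16 genes in KO replicate 1 and 8 in HxD replicate 2 had none over the exon.

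The position of the mark along the exon differed between subfamilies. In WT, peaks over the 12 alternate Pcdha genes covered 72.2% of genes at the start itself and 100% at 1900 bp downstream. Over the 22 Pcdhb genes the start was covered in 24.2% and the position 1700 bp downstream in 93.9%. The 12 Pcdhga genes had their highest cover close to the start, 94.4% at 400 bp against 69.4% at the start, whereas the 6 Pcdhgb genes reached 100% at 1500 bp. Among 17492 coding genes of known strand, cover was highest at 400 bp, at 55.3%. Averaged over genes, the share covered thus had a high point near the start and another deep in the exon for the alternate Pcdha and Pcdhgb genes, mainly the deep one for Pcdhb and mainly the early one for Pcdhga. Single genes such as Pcdha12 and Pcdhgb1 were covered almost without a gap over the exon in WT. Among the Pcdhga genes, Pcdhga10, Pcdhga11 and Pcdhga12 were covered deeper into the exon. Their WT means from the start to 2500 bp downstream were 2109, 1681 and 2116 bp, against 1258 bp per Pcdhga gene. In the mutants the lines kept these shapes at lower heights, with the highest point of Pcdhb at 69.7% in KO and 77.3% in HxD, and that of alternate Pcdha at 77.8% and 83.3%. The Pcdhgb line is the exception in KO, where its highest point stood at 200 bp, at 88.9%. Across the 9 lists, 375 peaks touched a window within 1 kb of a start, none touched the windows of more than 1 gene, and their summits lay at a median of 342 bp downstream (quartiles 152 and 798 bp).

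**Figure D2:**
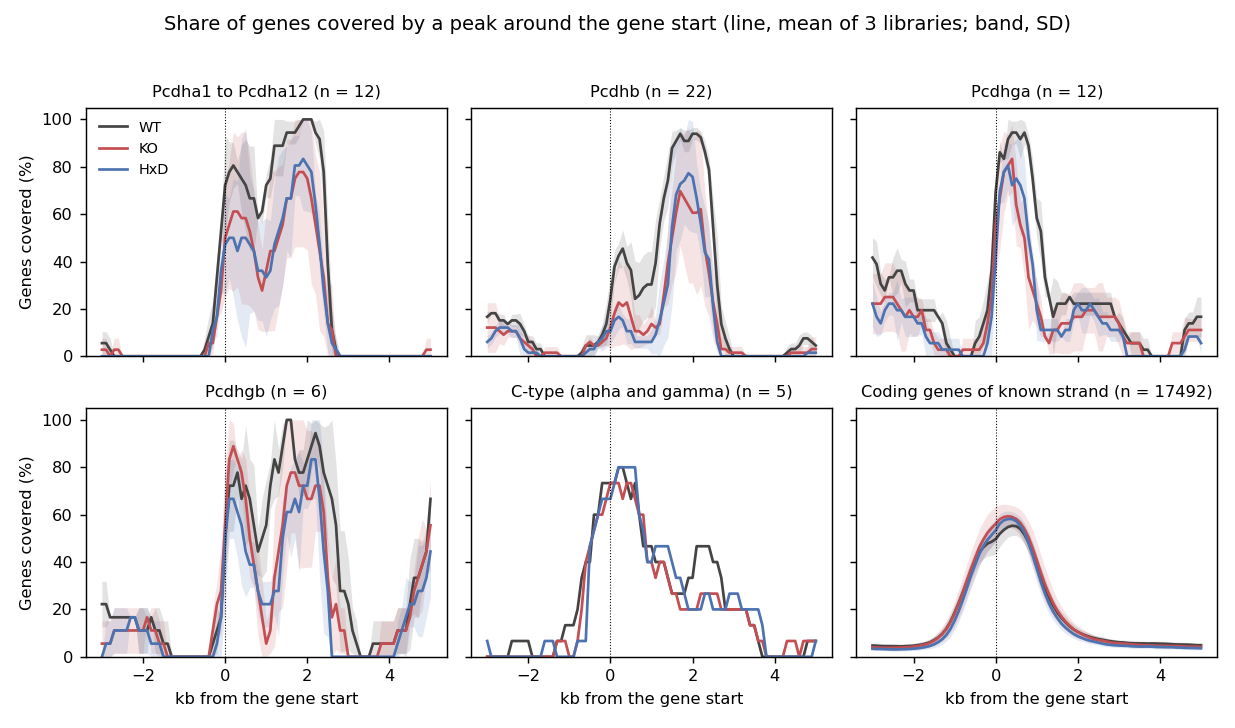
Share of genes covered by a peak (y axis, %) against distance from the gene start (x axis, kb), by subfamily and genotype, with the mean of 3 libraries as a line and the SD as a band (no band for the pooled C-type genes). Alternate Pcdha, Pcdhb and Pcdhgb genes show cover between 1 and 2.5 kb, reaching 93.9% of Pcdhb genes in WT. Pcdhga genes on average, and coding genes as a whole, are covered mostly near the start.

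Over the exon window, covered bp was lower in the mutants at nearly every gene. Averaged over the 57 genes it was 1593 ± 138 bp (WT), 1027 ± 416 bp (KO) and 1021 ± 286 bp (HxD), with the SD of 3 libraries. The whole lists were smaller too, with covered Mb at 0.718 (KO) and 0.627 (HxD) times that of WT. Of 39712 bins of 50 kb across the genome, 79.5% had a lower mean than WT in KO and 90.6% in HxD. In KO, 55 of the 57 genes had a lower mean than in WT, where 42.7% of the 15730 coding genes tested were lower, and the median difference was -556 bp against 53.3 bp for all of them. In HxD, 52 of 57 were lower against 52.7% of coding genes, with a median difference of -561 bp against -16.3 bp. With lists of equal length the counts were 45 in KO, against 31% of coding genes, and 42 in HxD, against 36.9%. Without KO replicate 1 the KO count was 46, against 31.4% of coding genes. Without HxD replicate 2 the HxD count was 47, against 49.0%. Every KO library lay below every WT library at 19 of the 57 genes (7.58% of all coding genes tested), and every HxD library did so at 18 (9.84%). No protocadherin lay wholly above WT in KO (9.36% of coding genes) or in HxD (5.63%). The KO and HxD comparisons share their WT libraries, so their counts are not independent of each other.

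Gene by gene, none of these differences passed the threshold. In limma's linear model over all 9 libraries with Benjamini-Hochberg adjustment over all genes, 0 coding genes were called at an adjusted p of 0.05 in any comparison, in either window (0% of 15451 genes within 1 kb). At an unadjusted p under 0.05, 12 of the 57 protocadherins were lower in KO within 1 kb (4.78% of genes tested) and 11 in HxD (5.37%), and none was higher in either (9.39% and 5.98%). Over the exon window the counts were 19 (5.44%) and 18 (6.15%). The test within 1 kb left out 10 genes because fewer than 3 libraries had a peak there, 9 of them Pcdhb genes and the last Pcdhgc5, whereas all 57 were tested over the exon.

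Summed over whole clusters, covered bp in the mutants relative to WT was lowest for Pcdhb. The Pcdhb cluster (chromosome 18, 37264998 to 37521419) had 34.8, 33.6 and 41.8 kb under peaks in WT, 11.4, 28.1 and 20.9 kb in KO and 22.9, 10.5 and 22.6 kb in HxD. All 6 mutant values were below all 3 WT values, and the ratios of means were 0.548 for KO and 0.509 for HxD. The Pcdhg cluster (37661775 to 37841873) had 38.4, 40.0 and 44.9 kb in WT, 19.4, 33.9 and 36.1 kb in KO and 35.3, 24.5 and 24.9 kb in HxD. Again no mutant library reached the WT range, with ratios of 0.725 and 0.687. The Pcdha cluster (36930285 to 37188897) had 28.6, 30.8 and 38.4 kb in WT, 8.77, 32.3 and 23.5 kb in KO and 28.6, 14.0 and 23.5 kb in HxD. Here KO replicate 2 fell among the WT libraries and HxD replicate 1 nearly equalled the lowest of them, and the ratios were 0.660 and 0.676.

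These sums follow the size of the lists to different degrees. Genome-wide, covered Mb in KO and HxD was 0.718 and 0.627 times that of WT. Per Mb covered in the library, the Pcdhb cluster held 413 ± 27.8 bp (WT), 303 ± 80.0 bp (KO) and 328 ± 95.1 bp (HxD), with the SD of 3 libraries. In the same order the Pcdhg cluster held 465 ± 54.9, 456 ± 68.4 and 504 ± 36.9 bp, and the Pcdha cluster 366 ± 31.5, 318 ± 135 and 386 ± 69.8 bp. On that scale the Pcdhb means were lower in both mutants, but KO replicate 2, at 385 bp, and HxD replicate 3, at 421 bp, lay inside the WT range of 383 to 439 bp. The HxD means of Pcdha and Pcdhg were above WT on that scale, with ratios of 1.055 and 1.083 and overlapping libraries, and their KO means were below it. With lists of equal length the Pcdhb ratios stayed at 0.540 and 0.516, whereas those of Pcdhg were 0.816 and 0.760 and those of Pcdha 0.850 and 0.945. Without KO replicate 1 the KO ratios were 0.667 for Pcdhb, 0.852 for Pcdhg and 0.855 for Pcdha, and without HxD replicate 2 the HxD ratios were 0.620, 0.732 and 0.799. The number of peaks moved less than their length. The Pcdhg cluster had 33.3 ± 1.53 (WT), 32.3 ± 3.21 (KO) and 32.7 ± 3.21 (HxD) peaks, at 1232 ± 60.8, 924 ± 290 and 862 ± 139 covered bp per peak. In Pcdhb the number fell too, with 33.3 ± 1.15, 26.7 ± 6.51 and 24.7 ± 5.86 peaks, at 1106 ± 173, 731 ± 147 and 737 ± 134 bp per peak. For Pcdha the KO and HxD ratios to WT were 0.887 and 0.915 in number and 0.711 and 0.725 in bp per peak.

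**Figure D3:**
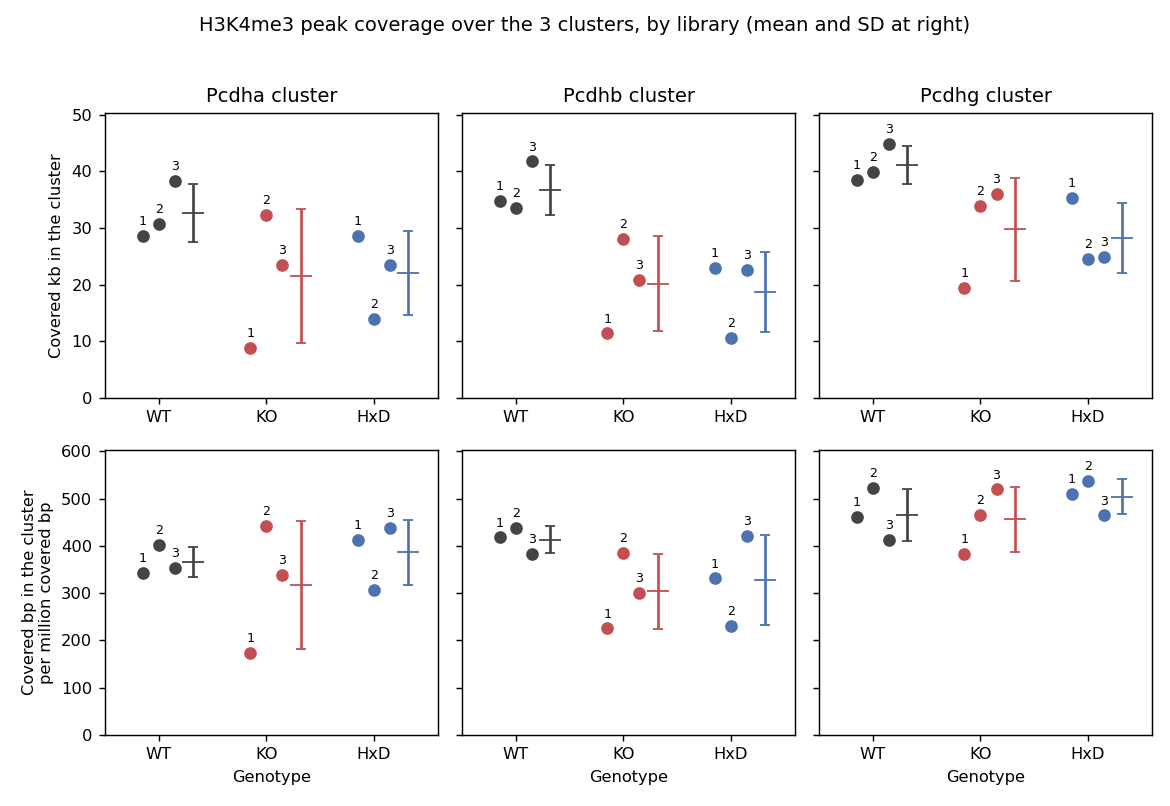
Covered kb in each cluster (top row) and covered bp per Mb covered in the library (bottom row) for each library, numbered by replicate, with the mean and SD of 3 libraries beside them. All mutant points lie below the WT points for Pcdhb and Pcdhg in the top row, and on the bottom row KO replicate 2, at 385, and HxD replicate 3, at 421, lie among the WT points for Pcdhb.

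The alternate Pcdha genes, Pcdha1 to Pcdha12, each encode an isoform with its own extracellular domain. They were marked at the start in 11, 10 and 12 of 12 cases in WT, 3, 12 and 10 in KO and 11, 6 and 8 in HxD. Over the exon all 12 had lower means in both mutants, with median differences of -792 bp in KO and -692 bp in HxD. Pcdha12 (37020230 to 37187657) had the highest WT mean at the start, with 1492, 1248 and 1239 bp in WT, 0, 537 and 983 bp in KO and 1192, 0 and 695 bp in HxD. Both mutants lay below WT, by 820 ± 317 and 697 ± 317 bp (SE), with limma adjusted p = 0.283 and 0.440. Pcdha9 had the lowest WT mean, with 303, 0 and 372 bp in WT, 0, 983 and 0 bp in KO and 817, 0 and 237 bp in HxD, and all groups overlapped.

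Pcdha7 (36973811 to 37187663) separated the 2 mutants most. Its start had 544, 1045 and 1099 covered bp in WT, 911, 347 and 668 bp in KO, and 0 in all 3 HxD libraries. KO overlapped WT and HxD lay apart from both. The limma difference was -896 ± 197 bp (SE) for HxD against WT (adjusted p = 0.153) and -642 ± 197 bp for HxD against KO (adjusted p = 1). Over the exon it had 2043, 2500 and 2500 bp in WT, 1413, 1704 and 1430 bp in KO and 888, 272 and 928 bp in HxD, so that the 3 genotypes did not overlap. The exon difference of HxD from WT was -1652 ± 224 bp, with the smallest adjusted p of any protocadherin in that comparison, 0.0684. Pcdha7 was the only one of 22 protocadherins marked at the start in every KO library to be marked in no HxD library (4.55%, against 0.175% of coding genes), and none showed the reverse, against 0.0652%. Pcdha3, also among the 5 smallest p-values for HxD against KO at the start, had 0, 1033 and 834 bp in WT, 1091, 1045 and 683 bp in KO and 702, 387 and 0 bp in HxD. At the start its HxD and KO values overlapped, and the adjusted p was 1. Over the exon its HxD values, 1738, 1208 and 1428 bp, lay wholly below those of KO, 1840, 1929 and 1776 bp. That pattern was seen in 6.37% of coding genes tested. Another coding gene model starts within 1 kb of each of Pcdha4, Pcdha6 and Pcdha7, so peaks there cannot be given to 1 model.

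The Pcdhb genes encode transmembrane proteins that lack the shared constant cytoplasmic domain. Within 1 kb of the start 15, 10 and 15 of 22 were marked in WT, 1, 12 and 8 in KO and 6, 3 and 6 in HxD. KO replicate 2 was inside the WT range and all HxD libraries were below it. Over the exon all 22 were marked in each WT library, 13, 22 and 21 in KO and 22, 16 and 22 in HxD, and all 22 had a lower mean in both mutants, with median differences of -688 bp in KO and -631 bp in HxD.

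Pcdhb6 (37333860 to 37337438) had 590, 595 and 838 covered bp at the start in WT and 0 in all 6 mutant libraries. It was the only protocadherin marked in every WT and no KO library, out of 41 marked in every WT library (2.44%, against 0.76% of coding genes), but without KO replicate 2 there were 7. The difference was -674 ± 122 bp (SE) in both comparisons, and the limma adjusted p was 0.0831 for KO and 0.120 for HxD, the smallest among the protocadherins in each. Pcdhb6 entered this test only through its WT libraries. Over the exon, where it was marked in every WT library as all protocadherins were, it had 1972, 1688 and 1682 bp in WT, 0, 899 and 0 bp in KO and 239, 0 and 517 bp in HxD. Those groups did not overlap either, with differences of -1481 ± 245 bp in KO (adjusted p = 0.0663) and -1529 ± 245 bp in HxD (adjusted p = 0.103). At the start, Pcdhb6 was called in both comparisons with a 500 bp window (adjusted p = 0.0346 in KO and 0.0311 in HxD) and with no filter on low genes (0.0364 and 0.0440). These calls share the limit that Pcdhb6 entered only through its WT libraries. Both mutant groups also had an SD of 0, which lowers the shared estimate of the spread, so the calls give no added support.

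Pcdhb18 (37489465 to 37494503), the third gene with peaks in all WT and no HxD libraries, had 361, 247 and 298 bp at the start in WT, 0, 764 and 0 bp in KO and 0 in HxD. KO replicate 2 was the highest of all 9 libraries. These 3 genes, Pcdha7, Pcdhb6 and Pcdhb18, were 7.32% of the 41 marked in every WT library, against 0.872% of coding genes, and without HxD replicate 1 there were 6. Over the exon window no protocadherin was absent from all KO libraries (0.813% of coding genes) or from all HxD libraries (0.841%). No protocadherin was marked in every library of a mutant and in no WT library, a pattern seen in 0.11% of coding genes for KO and 0.087% for HxD.

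Further Pcdhb genes had among the smallest p-values. Pcdhb22 had 1047, 1051 and 642 bp in WT, 0, 451 and 0 bp in KO and 861, 0 and 0 bp in HxD. KO lay below WT by 763 ± 248 bp (limma adjusted p = 0.214), while HxD replicate 1 lay inside the WT range. Pcdhb2 had 1388, 353 and 1041 bp in WT, 0, 263 and 320 bp in KO and 531, 355 and 239 bp in HxD. KO was wholly below WT (adjusted p = 0.216) and HxD overlapped it at the start, but over the exon both mutants were wholly below, by 1139 ± 250 and 1154 ± 250 bp (adjusted p = 0.101 and 0.165). Pcdhb11 had 674, 290 and 1001 bp in WT, 0, 382 and 0 bp in KO and 22, 0 and 0 bp in HxD, and HxD lay wholly below WT (adjusted p = 0.227). No peak lay at the start in any WT library for 4 Pcdhb genes, namely Pcdhb13, Pcdhb16, Pcdhb19 and Pcdhb21, and their exon means in WT were 1150, 990, 1220 and 1228 bp.

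Pcdhb1 (37264998 to 37267454), which stands apart at the near end of its cluster, had higher start means in the mutants than in WT. It had 1613, 696 and 1755 bp in WT, 1664, 1599 and 1690 bp in KO and 1397, 1620 and 1508 bp in HxD. All groups overlapped, and Pcdhb1 had the highest start mean of the Pcdhb genes in WT and was the only Pcdhb gene marked at the start in all 9 libraries. The differences were 296 ± 265 bp in KO (limma adjusted p = 0.639) and 154 ± 265 bp in HxD (0.865). Over the exon its means were lower in the mutants, with differences of -113 ± 227 bp (KO) and -173 ± 227 bp (HxD) and all groups overlapping (limma adjusted p = 0.859 and 0.847).

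The Pcdhga genes were marked at the start in all 12 cases in each WT library, in 10, 12 and 11 in KO and in 12, 10 and 11 in HxD. At the start covered bp per gene averaged 985 ± 61.8 (WT), 659 ± 159 (KO) and 682 ± 165 (HxD), with the SD of 3 libraries. Over the exon all 12 means were lower in KO and 11 of 12 in HxD. Pcdhga8 (37725706 to 37841873) had 1198, 897 and 1046 bp in WT, 315, 578 and 0 bp in KO and 989, 393 and 887 bp in HxD. Here KO was wholly below WT, by 749 ± 218 bp (adjusted p = 0.171), and HxD overlapped both. Pcdhga1 (37661775 to 37841870), the Pcdhg gene nearest the Pcdhb cluster, had 1033, 1022 and 707 bp in WT, 291, 256 and 427 bp in KO and 878, 440 and 700 bp in HxD. KO was wholly below both other genotypes, with a difference from WT of -596 ± 178 bp (adjusted p = 0.182) and from HxD that did not pass the threshold (adjusted p = 1). Pcdhga2 had the highest WT mean, with 1354, 781 and 1567 bp against 542, 531 and 978 bp in KO and 997, 967 and 394 bp in HxD, and both mutants overlapped WT. Pcdhga12 had the lowest, with 755, 712 and 655 bp in WT, 0, 646 and 746 bp in KO and 1021, 747 and 583 bp in HxD, and it was not lower in HxD.

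The 6 Pcdhgb genes were all marked at the start in each WT library, with 5, 6 and 5 marked in KO and 5, 4 and 4 in HxD. At the start covered bp per gene averaged 700 ± 98.1 (WT), 663 ± 60.1 (KO) and 490 ± 113 (HxD). Over the exon 5 of the 6 means were lower in KO and 4 in HxD. Pcdhgb1 (37680272 to 37841870) had 1164, 1289 and 950 bp in WT, 769, 500 and 814 bp in KO and 630, 0 and 490 bp in HxD. Both mutants were wholly below WT, HxD by 761 ± 208 bp (limma adjusted p = 0.205, and 0.0286 with lists of equal length). Its exon was covered for 2500, 2500 and 2449 bp in WT, 1208, 1446 and 1710 bp in KO and 1717, 902 and 885 bp in HxD. Pcdhgb2 had 765, 1055 and 787 bp in WT, 0, 567 and 0 bp in KO and 0, 0 and 671 bp in HxD, both wholly below WT (adjusted p = 0.220 and 0.341). Pcdhgb5 had the lowest WT mean and went the other way, with 12, 196 and 802 bp in WT, 487, 790 and 949 bp in KO and 720, 636 and 1024 bp in HxD. The mutants overlapped WT, and the differences of 405 ± 230 and 457 ± 230 bp did not pass the threshold (adjusted p = 0.449 and 0.489). Pcdhgb6 had 560, 309 and 910 bp in WT, 669, 947 and 487 bp in KO and 479, 472 and 0 bp in HxD, with HxD wholly below KO by 384 ± 212 bp (adjusted p = 1).

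The 5 C-type genes lie after the alternate genes of their clusters and encode the isoforms that neurons express most evenly. Apart from Pcdhgc5 they were marked at the start in all 9 libraries. Pcdhgc3 (37806410 to 37841873) had the highest start mean of all 57 genes in WT, with 1548, 2001 and 1604 bp, against 1407, 1796 and 1792 bp in KO and 1546, 1435 and 1435 bp in HxD. KO overlapped WT, and HxD lay just below it, by 246 ± 189 bp (adjusted p = 0.659). Pcdhac2 had 1205, 1053 and 1963 bp in WT, 990, 1627 and 1606 bp in KO and 1526, 1557 and 1256 bp in HxD. The means, 1407, 1408 and 1446 bp, lay closer together than the libraries within any group (limma adjusted p = 1 and 0.978). Pcdhac1 had 564, 1081 and 1835 bp in WT, 274, 1468 and 929 bp in KO and 1153, 1552 and 1198 bp in HxD, with all groups overlapping. Pcdhgc4 had 1180, 928 and 1731 bp in WT, 601, 1405 and 1606 bp in KO and 1305, 423 and 761 bp in HxD, also overlapping. Over its exon window Pcdhgc5 had 899, 683 and 419 bp in WT, 330, 262 and 246 bp in KO and 672, 733 and 278 bp in HxD, and only KO was wholly below WT (adjusted p = 0.342). Whether C-type and alternate genes differed in their response was not tested.

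Between the mutants, neither direction prevailed. Of the 57 genes, 30 had a lower mean over the exon in HxD than in KO and 27 a higher one, with 64.9% of coding genes lower, and the median difference was -6.67 bp, against -66.7 bp for all coding genes. No coding gene was called by limma between them in either window, and at an unadjusted p under 0.05 the start window gave 1 protocadherin lower in HxD, Pcdha7, and 0 higher (1.9% and 0.291% of genes tested). The exon window gave 2 lower, Pcdha7 and Pcdhgb6, and 1 higher, Pcdhga8, against 382 and 77 of the 15730 coding genes tested. KO replicates 1 and 2 stood further apart, at 23 and 46 genes marked at the start, than the means of KO and HxD, at 35.7 and 32.7.

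Outside the windows of the genes, little of the clusters was covered. The windows from 1 kb upstream to 2500 bp downstream of the starts make up 18.6% of the Pcdha span, 29.6% of Pcdhb and 40.3% of Pcdhg. They held 86.5% to 97.4% of the covered bp of the Pcdha cluster, 81.2% to 98.8% of Pcdhb and 79.4% to 84.1% of Pcdhg. In Pcdhg, a region beyond Pcdhgc5, at 37824238 to 37826111, had a peak in all 9 libraries. So did one at 37841081 to 37843591, which runs past the shared ends of the cluster. Mostly upstream of the Pcdhga12 window, a region at 37762900 to 37764772 had a peak in 8 libraries. Beyond Pcdhac2, within the end of the Pcdha cluster, 3 regions had peaks in 7, 7 and 6 libraries. Between the Pcdha and Pcdhb clusters a region at 37216826 to 37218374 had 1045, 825 and 1543 covered bp in WT, 0, 402 and 367 bp in KO and 0 in HxD. Between Pcdhb and Pcdhg, a region at 37552702 to 37553672 had 261, 652 and 508 bp in WT and 0 in all 6 mutant libraries, and one at 37564809 to 37565649 had 395, 483 and 754 bp in WT, 0 in KO and 360, 0 and 656 bp in HxD. Not all went that way. A region at 37575003 to 37576654 had higher means in the mutants, with 0, 410 and 1507 bp in WT, 542, 1208 and 1433 bp in KO and 1153, 481 and 1030 bp in HxD. These regions were picked after their values were seen and have no test. Among the other coding genes beside the clusters, Taf7, between Pcdhb and Pcdhg, was marked in all 9 libraries, with 1254 ± 692 bp (WT), 1466 ± 476 bp (KO) and 1489 ± 506 bp (HxD). Slc25a2, also between Pcdhb and Pcdhg, was marked in all 9 too and had lower means in both mutants, with 1620 ± 332, 1081 ± 709 and 1010 ± 528 bp in the same order (limma adjusted p = 0.544 and 0.578). Diaph1, beyond Pcdhg, had 1121 ± 492, 1197 ± 332 and 927 ± 277 bp. For Taf7, Slc25a2 and Diaph1 no strand record was available. The gene end used was the one with more covered bp in these same lists, which favours finding them marked.

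**Figure D4:**
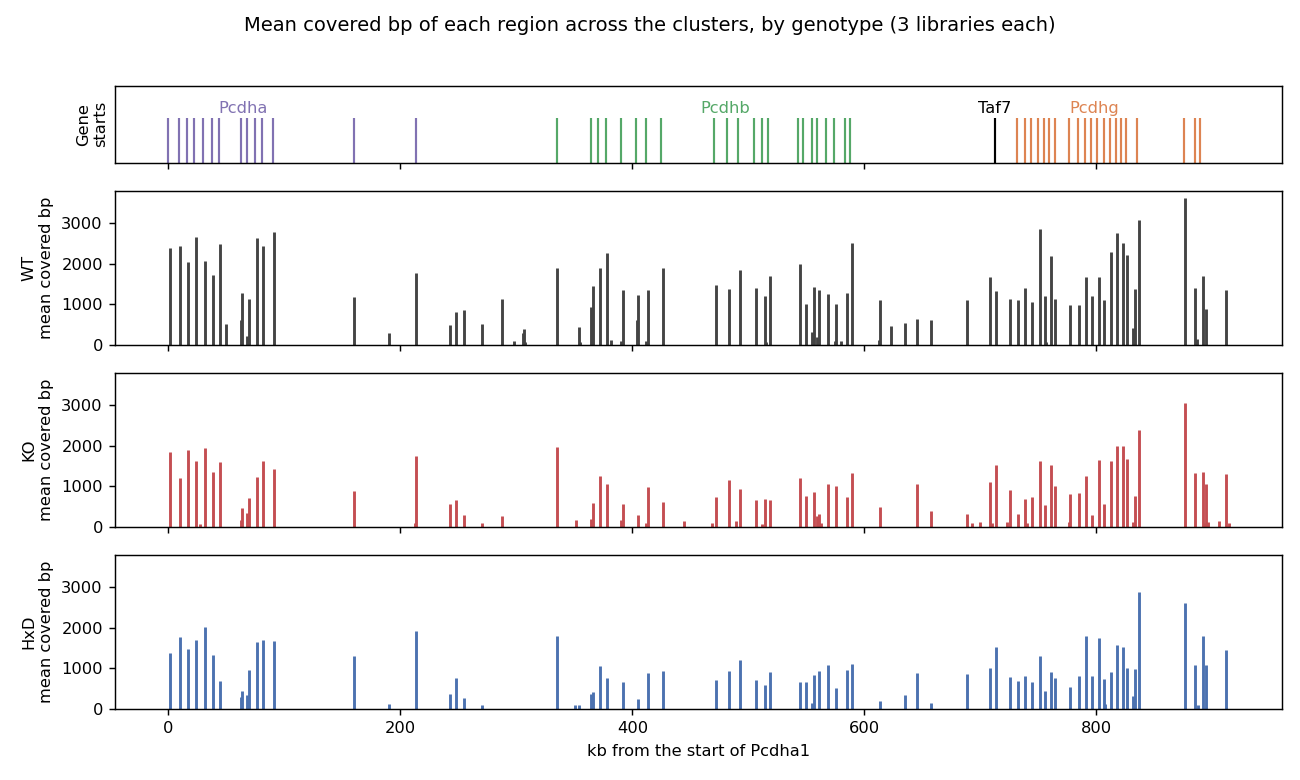
Mean covered bp (y axis) of each region with a peak in any library, by genotype (3 libraries each), against distance in kb from the start of Pcdha1 (x axis), under the positions of the gene starts, with Taf7 in black. Most Pcdhb regions stand lower in KO and HxD than in WT, while the region of Pcdhgc3, the tallest in WT, stays among the tallest in each.

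Bins of 50 kb, fitted by the same limma model over 39712 bins, included the space between genes. In KO, 4 of the 16 bins over the clusters were called lower (21.1% of all bins), 3 of 6 over Pcdhb, 1 of 4 over Pcdhg and 0 of 6 over Pcdha. In HxD 6 of 16 were called lower (25.2% of all bins), 5 over Pcdhb and 1 over Pcdhg. The bin with the lowest adjusted p in both, 37300001 to 37350000, holds the starts of Pcdhb3 to Pcdhb7 and had 7455, 8966 and 10428 covered bp in WT, 1500, 7154 and 4539 bp in KO and 3927, 1668 and 5211 bp in HxD. Both mutants lay wholly below WT (limma adjusted p = 0.0213 and 0.01003). The calls depended on a few libraries: 0 cluster bins were called in KO without KO replicate 1 or without WT replicate 3, and 0 in HxD without HxD replicate 2. The share over all 16 bins in KO is near that of the genome.

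Within each list the median protocadherin peak was weaker than the median promoter peak. The fold enrichment and q value of each peak are the authors' own. At the marked starts the median fold was 7.56, 7.88 and 10.2 in the WT lists, against 9.09, 9.06 and 11.6 over all marked coding genes of the same list. In KO it was 6.73, 8.23 and 8.29 against 11.4, 15.6 and 17.52, and in HxD 8.79, 6.87 and 8.35 against 12.8, 12.4 and 10.5. The median protocadherin peak ranked by q at percentile 42.2, 36.8 and 38.0 of promoter peaks in WT, 13.6, 10.3 and 10.5 in KO and 16.8, 8.83 and 20.9 in HxD. Among the subfamilies, Pcdhb peaks ranked lowest in every list but that of KO replicate 1, where only 1 was marked. Their median percentiles were 23.7, 17.8 and 37.3 in WT and 3.30 to 4.99 in KO replicates 2 and 3 and the HxD lists. C-type peaks ranked highest in the same 8 lists, at 46.8 to 73.7 in WT and 21.8 to 48.3 in the mutants. Over all marked protocadherins together, the median rank was lower in every mutant list than in every WT list. By subfamily this did not always hold. The C-type rank was 48.3 in HxD replicate 1, against 47.8 and 46.8 in WT replicates 2 and 3. The 1 marked Pcdhb gene of KO replicate 1 ranked at 39.1, above the Pcdhb medians of WT. The lists differ in length, background and the set of genes marked, so these ranks cannot be read as a change in the mark.

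Protocadherins outside the clusters are dispersed genes with promoters of their own. Within 1 kb they were marked in 9 to 11 of 12 cases in each library. Pcdh12, an endothelial gene, had no peak there in any library, but had one in at least 3 libraries over the longer window. None passed the limma test, and over the exon-length window 9 of 12 had lower means in each mutant, with median differences of -102 bp in KO and -277 bp in HxD, against 53.3 and -16.3 bp for all coding genes. Pcdh10 had 2001, 2001 and 1760 bp at the start in WT, 1615, 1151 and 1444 bp in KO and 871, 1583 and 1161 bp in HxD, both wholly below WT (adjusted p = 0.342 for KO). Of 21 genes known to regulate the clusters (CTCF, cohesin, SMCHD1, SETDB1 and other H3K9 methyltransferases with their partners, and DNA methyltransferases), 20 were tested at the start and 0 were called in either mutant. In KO 4 had a lower mean and 16 a higher one, and in HxD 8 and 12, with median differences of 301 and 183.5 bp, against 70.7 and 5.33 bp for all genes tested. Of all genes tested there, 40.2% were lower in KO and 49.0% in HxD. In KO 6 lay wholly above WT and 1 wholly below (9.92% and 7.1% of genes tested). In HxD the counts were 3 and 2 (6.34% and 9.06%). Ctcf had 794, 1612 and 2001 bp in WT and 2001 bp in every mutant library. Setdb1, which encodes a methyltransferase for H3K9, had 0, 0 and 594 bp in WT, 976, 699 and 1153 bp in KO and 1014, 921 and 864 bp in HxD, wholly above WT in both (limma adjusted p = 0.161 for KO). Nipbl, the cohesin loader, had 1324, 754 and 736 bp in WT, 0, 507 and 459 bp in KO and 302, 275 and 428 bp in HxD, wholly below WT in both (adjusted p = 0.225 for KO). Dnmt3a had no peak at the gene end used, so its promoter was not read here.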

How the data were processed

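The deposited files were 9 narrow peak lists, in the format of MACS2, of H3K4me3 CUT&RUN, 1 for each library. Per the submitters' processing notes, which give no roles, the build was mm10 and the software included MACS2 2.1.0, Bowtie2 2.5.0, Trim Galore, deepTools 3.5.1, bedtools 2.27.1 and SAMtools 1.16.1. The sources used here give neither the control of the peak calls nor the handling of reads that map to several similar genes, which matters for these paralogs. Each deposited peak has positions and a summit, a score, a fold enrichment as a linear ratio, and −log10 p and −log10 q values, all computed by the authors. The smallest −log10 q in each list was 2.00 to 2.02, so every peak passed a q of 0.01. Depth is unknown.

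Genes came from the RefSeq table of GRCm38.p6 (mm10). Coordinates are 1-based. The start of each protocadherin is the low end of its gene, where its variable exon lies. For other coding genes the strand came from RefSeq promoter records (17492 genes) or, failing that, the end with more covered bp was used (4338 genes). Covered bp was tested with limma 3.58.1 in R 4.3.3 (eBayes with trend, all 9 libraries, no covariates, Benjamini-Hochberg adjustment over all genes or bins, threshold 0.05) for genes covered in at least 3 libraries. Sums and counts have no test. Scripts were tested on simulated data. Other work used Python 3.11.15, numpy 2.4.6, pandas 2.3.3 and scipy 1.17.1, with matplotlib 3.10.9 for plots.

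The members, lists and tests were chosen with earlier results of these data known. Genes named with values were those marked in every library of one genotype and none of another, the C-type genes and Pcdhb1, the highest and lowest WT mean of each subfamily, and the 5 smallest p-values of each comparison. Pcdh10, Ctcf, Setdb1, Nipbl, Taf7, Slc25a2 and Diaph1 were chosen after their values were seen. Alternatives were peaks with −log10 q of at least 4, lists cut to the length of the shortest, windows of 500 bp and 2 kb, no filter, each library centred, a replicate block and each library left out. The exon window, and leaving out KO replicate 1 and HxD replicate 2 together, were added after seeing the data. Sequences of the genes are not printed here. A gene of the list of regulators was left out and is not reported here.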

Additional observations from a re-analysis of the deposited data

How the results depend on the processing

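HxD turned above WT in the number of genes marked over the exon with lists of equal length (51 against 50.3) and, per Mb covered, in the Pcdha and Pcdhg clusters (ratios of 1.055 and 1.083). The count of marked genes in HxD relative to WT, 0.705, was 0.915 with lists of equal length, 0.936 in a 2 kb window and 0.953 over the exon, and the HxD ratio of the Pcdha cluster was 0.945 with lists of equal length. Genes marked in every WT and no KO library numbered 1, with 0 over the exon and 1 to 7 with a library left out (7 without KO replicate 2). Those absent from HxD numbered 3, with 0 in a 2 kb window, 0 over the exon and 3 to 6 with a library left out (6 without HxD replicate 1). Coding genes called in KO numbered 0, but 426 with lists of equal length, 30 in a 500 bp window, 43 without the filter, 195 with each library centred and 0 to 146 with a library left out, 146 being without WT replicate 3. Of the protocadherins, 1 was called in the 500 bp window, 1 without the filter and 1 with centring, each time Pcdhb6. This gene entered these fits only through its WT libraries. In HxD the genes called were 161 with lists of equal length, 4 in a 500 bp window, 20 without the filter and 0 to 76 with a library left out, 76 again being without WT replicate 3. The protocadherin called was Pcdhgb1 with lists of equal length (1 gene) and Pcdhb6 in the 500 bp window (1) and without the filter (1).

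Bins called in KO numbered 2356 with lists of equal length, 4215 with centring, 3314 without both KO replicate 1 and HxD replicate 2, and 3733 to 10034 with a library left out. Cluster bins were then 1, 5, 0 and 0 to 6. In HxD the bins numbered 670, 1610, 2006 and 2751 to 12212, with 1, 3, 1 and 0 to 8 over the clusters. The replicate block left 0 protocadherins called. Across genes, deviations from the group mean had correlations of -0.124 to 0.0403 between same-numbered libraries of different genotypes. Differently numbered ones had -0.0588 to 0.117. Whether same-numbered libraries shared a litter or a batch was not tested. The depth of the libraries is unknown, and its part in these values was not tested.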
